A study of Homo sapiens with 6 samples.

Results

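BAX, PMAIP1, BBC3, BCL2 and AEN are 5 genes of mitochondrial cell death and of the p53 response, and their transcripts were compared between THP-1 cells expressing RKIP shRNA and THP-1 cells carrying the empty vector. They are 5 of 14884 genes that the array table ties to a single symbol. Where a gene had several probes the brightest on average was read, and each of the 5 has only 1 named probe. The 5 were selected on their log2 difference between the groups in these same arrays, so their values below are a description, with no p-value.

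THP-1, an established cell line from a human acute monocytic leukaemia, is known to lack functional p53. Both groups were transduced with the lentiviral vector psi-LVRU6GP, with a short hairpin RNA against RKIP or without a hairpin, and both were selected and kept in 1.5 µg/mL puromycin. RKIP, the Raf kinase inhibitor protein encoded by PEBP1, is known to restrain signalling from RAF to ERK, and the comparison asked which genes change when it is depleted in leukaemia cells. There were 3 biological replicates per group by the labels, with 1 array each. Whether they were separate transductions or repeat cultures of 1 transduced population is not stated, so all tests measure a spread between arrays that could be technical.

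The BCL2 family decides whether the outer mitochondrial membrane is opened. BAX and BAK form the pore, BCL2 and its relatives hold them back, and BH3-only proteins such as NOXA and PUMA bind the protective members or the pore formers and so promote opening. Cytochrome c released through the pore then activates caspases. p53 is known to induce BAX, PMAIP1 (which encodes NOXA), BBC3 (which encodes PUMA) and AEN, an exonuclease gene. Some of these genes also respond to other factors, PMAIP1 and BBC3 among them.

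The sequences before the start sites are shown for BAX, PMAIP1 and AEN, the 3 members with higher levels, so that the short motifs in them can be compared. Each is the stretch of 250 bases upstream of the RefSeq start site in GRCh38.p14, written 5′ to 3′ on the gene's strand. The capitals mark every match of the motifs searched. Searched were the E-box CACGTG, the GC box GGGCGG, the CCAAT box, the core TGACG of the cAMP response element, the TATA box TATAAA and the p53 response element half-site, with the reverse complement of each.
BAX (chr19:48954625-48954874, plus strand): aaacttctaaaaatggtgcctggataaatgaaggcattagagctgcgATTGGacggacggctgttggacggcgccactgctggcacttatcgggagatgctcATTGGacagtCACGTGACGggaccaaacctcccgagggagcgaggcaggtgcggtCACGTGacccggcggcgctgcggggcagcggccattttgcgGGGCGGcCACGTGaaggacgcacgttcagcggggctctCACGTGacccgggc
PMAIP1 (chr18:59899746-59899995, plus strand): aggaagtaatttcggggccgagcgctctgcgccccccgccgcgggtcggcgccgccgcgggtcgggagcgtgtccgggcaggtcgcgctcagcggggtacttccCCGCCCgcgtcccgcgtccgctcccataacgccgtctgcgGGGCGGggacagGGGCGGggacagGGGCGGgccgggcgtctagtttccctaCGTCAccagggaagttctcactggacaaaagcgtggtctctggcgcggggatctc
AEN (chr15:88621090-88621339, plus strand): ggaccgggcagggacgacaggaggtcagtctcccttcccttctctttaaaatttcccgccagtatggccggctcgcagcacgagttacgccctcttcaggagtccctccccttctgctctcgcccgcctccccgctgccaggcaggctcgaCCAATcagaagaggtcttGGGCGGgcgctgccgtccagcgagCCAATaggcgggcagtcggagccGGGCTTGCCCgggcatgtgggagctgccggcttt

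The windows of all 5 members were searched on both strands for these motifs, without any test. BAX held 4 E-boxes, beginning 138, 93, 45 and 14 bases upstream of the start, a number reached by 5 of 35116 RefSeq windows of the same length (0.0142%). At least 1 E-box was present in 6.34% of windows, and BBC3 held 1, beginning 232 bases upstream. PMAIP1 held 4 GC boxes, a number reached in 7.63% of windows. The p53 half-site was searched as RRRCWWGYYY (R is A or G, W is A or T, Y is C or T) without mismatches. Half-sites with a mismatch and sites outside the window were not searched. AEN was the only member with an exact p53 half-site in this window, and 5.57% of windows held at least 1. It began 34 bases upstream of the start, and AEN also had 2 CCAAT boxes, a motif present in 32.0% of windows. BAX had 2 CCAAT boxes and BBC3 had 1. The GC box was thus in all 3 printed windows, with 1 each in BAX and AEN, and in neither BBC3 nor BCL2. At least 1 GC box was present in 42.6% of windows, and a link between this motif and the changes was not tested. TGACG, found in 21.2% of windows, occurred once each in BAX, PMAIP1 and BCL2, and in BAX it overlapped the E-box that begins 138 bases upstream. TATAAA, found in 10.7% of windows, was in none of the 5. Base composition differed too: G and C made up 62.8% of the BAX window, 72.8% of PMAIP1, 49.2% of BBC3, 70.0% of BCL2 and 66.0% of AEN, against a median of 58.0% over all windows.

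PEBP1 was read first as a check of the labels. It stood at 8.25, 8.18 and 8.24 in RKIP shRNA arrays, against 9.51, 9.77 and 9.75 in control arrays (log2 values). The remaining level was 36.4% of control (95% interval of the fold 0.32 to 0.42; limma adjusted p = 0.000228). For PEBP1 by itself an exact two-sided permutation test gave p = 0.10, below which 3 against 3 arrays cannot go. Array medians lay between 4.06 and 4.10. Of the 11 marker genes listed for a monocytic line 7 were measured, and 6 of these lay above the median of all values, 4.08, in both groups. The exception was CD14, at 2.71 in RKIP shRNA and 2.77 in control cells. Values below 4.08 are called dim here, since array background compresses changes at low signal.

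Gene expression differed between the groups for 20.2% of the named genes by limma at a Benjamini-Hochberg adjusted p under 0.05, with 10.0% higher and 10.2% lower in RKIP shRNA cells. All 5 members passed that threshold, 3 of them higher and 2 lower, and nothing is read from that count because the 5 were chosen by this contrast. None of the 5 had overlapping groups, a property shared by 37.9% of all named genes. All 5 lay above the median of all values in both groups. The changes were modest. BAX differed by more than 97.1% of named genes when the size of the change is ranked, PMAIP1 and BBC3 by more than 87.6%, AEN by more than 85.9% and BCL2 by more than 82.6%.

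BAX encodes the effector that inserts into the outer mitochondrial membrane and forms pores. Its level was 7.85, 7.98 and 7.81 in RKIP shRNA arrays, against 6.97, 7.21 and 7.12 in control arrays (log2 values). Every RKIP shRNA array was above every control array, with 0.60 between the nearest pair. The means were 7.88 ± 0.09 and 7.10 ± 0.12 (SD, n = 3 each) in RKIP shRNA and control cells. The log2 change was 0.78 ± 0.09 (SE), or 1.71-fold with a 95% interval of 1.48 to 1.98. This was the largest change among the 5.

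PMAIP1 encodes NOXA, a BH3-only protein that binds MCL1. It stood at 8.92, 9.02 and 8.96 in RKIP shRNA arrays, against 8.54, 8.59 and 8.47 in control arrays. The arrays of each group lay close together, and the groups were 0.33 apart at their nearest. The log2 change was 0.44 ± 0.07 (SE), which is 1.35-fold with an interval of 1.21 to 1.52.

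AEN encodes a nuclease with a role in apoptosis. Its levels were 7.31, 7.24 and 7.24 in RKIP shRNA arrays, against 6.81, 7.02 and 6.75 in control arrays. The RKIP shRNA arrays were tight (SD 0.04), while control replicate 2 lay above the other control arrays (SD 0.14). The log2 change was 0.41 ± 0.09 (SE), or 1.33-fold with an interval of 1.15 to 1.53.

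BBC3, which encodes the BH3-only protein PUMA, went the other way. Its levels were 5.48, 5.23 and 5.20 in RKIP shRNA arrays, against 5.90, 5.60 and 5.72 in control arrays. The highest RKIP shRNA array and the lowest control array were only 0.12 apart, the narrowest gap of the 5. The log2 change was -0.44 ± 0.11 (SE), which is 73.9% of the control level with a 95% interval of the fold from 0.62 to 0.89.

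BCL2 encodes the founding protective member of the family, which binds BAX and BH3-only proteins. It stood at 10.38, 10.35 and 10.42 in RKIP shRNA arrays, against 10.72, 10.76 and 10.76 in control arrays. The RKIP shRNA arrays were all lower, by 0.30 at the nearest, and the spread within groups was the smallest of the 5 in control cells (SD 0.02). The log2 change was -0.36 ± 0.06 (SE), leaving 77.8% of the control level with a 95% interval of the fold from 0.70 to 0.86.

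BAX and BCL2 thus differed in opposite directions. With each gene set relative to its own control mean, the log2 difference of BAX minus BCL2 was 1.11, 1.28 and 1.03 in RKIP shRNA arrays, against -0.11, 0.10 and 0.00 in control arrays. The relative level of BAX over BCL2 was 2.20-fold that of control cells. This ratio was built from members chosen for these changes and carries no test. PMAIP1 and BBC3, both BH3-only genes, also differed in opposite directions by nearly the same amount.

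**Figure D1:**
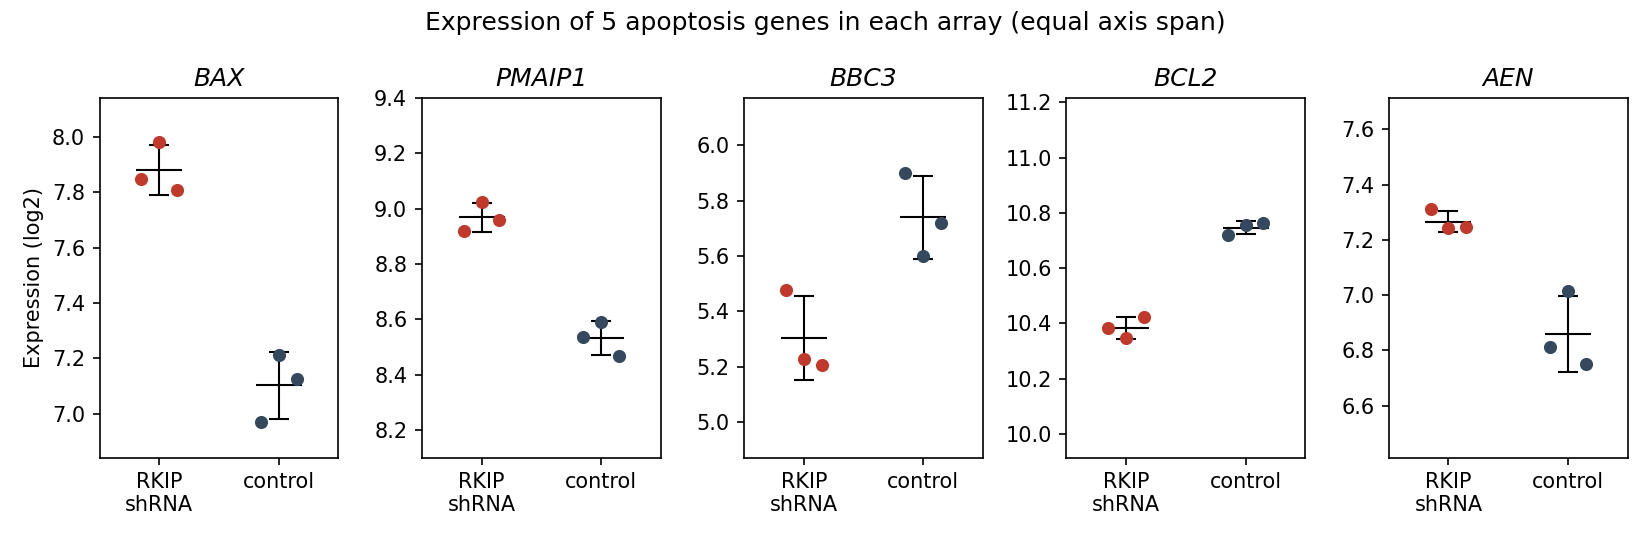
Expression of BAX, PMAIP1, BBC3, BCL2 and AEN in each array (vertical axes, log2 values, all spanning the same range) for RKIP shRNA (left, red) and control cells (right, dark blue). Points are arrays, and bars are the mean ± SD of 3 arrays; the groups did not overlap for any of the 5, with BBC3 showing the narrowest gap, 0.12.

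The rest of the BCL2 family was read from lists assembled with earlier results of these data known. In all lists together, 80 genes other than the 5 members were measured, of which 17 were higher and 6 lower (28.8% called, against 20.2% of all named genes). Their median log2 change was 0.02, equal to that of all named genes, 0.02. The listed genes held fewer that were dim in at least 1 group, 14 of 80 against 5449 of all 14884. When genes with a dim mean over all arrays were left out, 42.4% of 66 listed genes and 38.2% of 9667 named genes were called. By direction, 19 of these listed genes were higher and 9 lower, against 1887 higher and 1808 lower of the named genes. No set test was made on these counts.

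Among the protective relatives of BCL2, 4 genes were measured besides BCL2, and 1 rose, none fell and 3 did not pass. MCL1, the short-lived protective protein that NOXA binds, rose to 9.48 ± 0.15 in RKIP shRNA cells, against 8.99 ± 0.09 in control cells (SD, n = 3 each). Its log2 change was 0.48 ± 0.10 (SE, limma adjusted p = 0.014), and the adjusted p was 0.0502 without control replicate 1. BCL2 and MCL1, which both protect the membrane, thus had changes of opposite sign. BCL2L1, which encodes BCL-XL, had a log2 change of -0.02 with a 95% interval from -0.22 to 0.17 (limma adjusted p = 0.89). BCL2A1 and BCL2L10 were dim in both groups, with log2 changes of 0.11 and 0.15.

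Of the pore-forming genes, BAK1 and BOK were measured besides BAX. BAK1, the partner of BAX in pore formation, rose to 8.36 ± 0.05 in RKIP shRNA cells, against 8.02 ± 0.14 in control cells (SD, n = 3 each). Its log2 change of 0.33 ± 0.09 (SE) had a limma adjusted p of 0.038, which lay between 0.053 and 0.11 when any 1 array was left out. BOK, a more distant effector, had a log2 change of 0.03 with an interval from -0.23 to 0.28.

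Of 5 BH3-only genes besides PMAIP1 and BBC3, 2 rose, none fell and 3 did not pass. BID, which caspases cleave to link death receptors to mitochondria, rose by 0.39 ± 0.08 (log2, SE; limma adjusted p = 0.012). It stood at 8.14, 7.97 and 8.16 in RKIP shRNA arrays, against 7.66, 7.71 and 7.72 in control arrays. BAD, whose protein is inactivated by survival kinases, rose by 0.38 ± 0.09 (limma adjusted p = 0.022), with an adjusted p up to 0.079 when control replicate 2, control replicate 3, RKIP shRNA replicate 1 or RKIP shRNA replicate 2 was left out. BCL2L11, which encodes the BH3-only protein BIM, had a log2 change of -0.07 with an interval from -0.26 to 0.11. BIK was at 0.02 and BMF at -0.26 on the same scale (limma adjusted p = 0.95 and 0.14). A second, dimmer BMF probe had a change of -0.06.

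**Figure D2:**
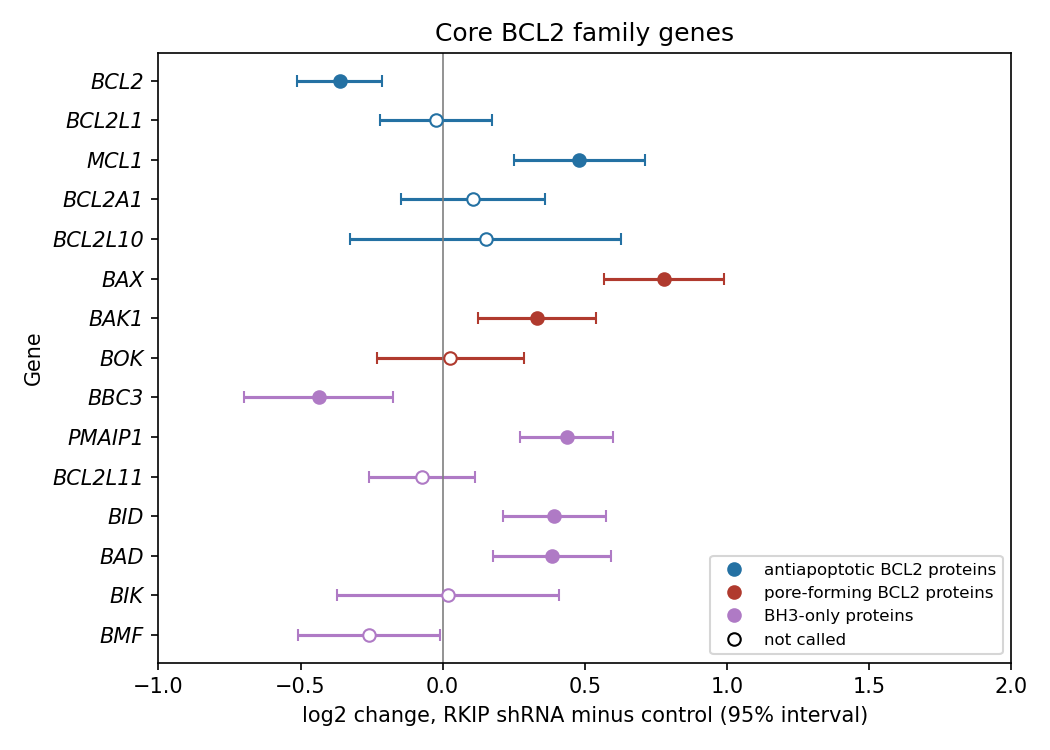
Log2 change of RKIP shRNA minus control (horizontal axis) with its 95% interval for the 15 measured core BCL2 family genes (vertical axis), coloured by role. Filled points passed the adjusted threshold in the fit over all named genes; within each role genes differ in direction or in whether they passed, as with MCL1 at 0.48 and BCL2 at -0.36.

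More distant relatives and partners of BCL2 were mixed: of 12 measured, 3 rose, 1 fell and 8 did not pass, with a median of 0.10. BCAP31, an endoplasmic reticulum protein cleaved by caspase 8, rose by 0.71 ± 0.07 (SE, limma adjusted p = 0.00093). BAG1, a co-chaperone that binds BCL2, rose by 0.45 ± 0.07 (limma adjusted p = 0.0063). BCL2L12 rose by 0.31 (limma adjusted p = 0.024), and kept its call only without RKIP shRNA replicate 3, with an adjusted p up to 0.086 otherwise. BNIP3L, a mitophagy receptor gene that is also induced by low oxygen, fell by 0.72 (log2, SE 0.08; limma adjusted p = 0.0015).

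Apoptosis genes known to be induced by p53 were next. Of 11 measured besides the members, 3 rose, none fell and 8 did not pass, with a median log2 change of 0.09. CDIP1, a p53-induced proapoptotic gene, stood at 6.86, 7.04 and 7.12 in RKIP shRNA arrays, against 6.19, 6.32 and 6.31 in control arrays. It rose by 0.74 ± 0.09 (SE, limma adjusted p = 0.0022). EI24, an endoplasmic reticulum protein gene, rose by 0.50 ± 0.07 (limma adjusted p = 0.0039). PIDD1, which encodes a scaffold that activates caspase 2, rose by 0.40 ± 0.07 (limma adjusted p = 0.010). The remaining 8 included DRAM1 at 0.50, dim in both groups and not passing (limma adjusted p = 0.098), and the apoptosome gene APAF1 at -0.14 (limma adjusted p = 0.21). DRAM1 and APAF1 are named after their values were seen.

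Targets of p53 in cell cycle arrest, repair and metabolism did not share a direction. Of 23 measured, 2 rose, 3 fell and 18 did not pass (21.7% called), with a median of -0.03. TRIM22, a restriction factor gene that interferon also induces, fell by 1.07 (log2, SE 0.08; limma adjusted p = 0.00048). CCNG1, the cyclin G1 gene, fell by 0.68 (SE 0.07, limma adjusted p = 0.00093). GM2A, a lysosomal activator protein gene, fell by 0.26 (limma adjusted p = 0.042) and did not pass in any of the 6 fits that left out 1 array (adjusted p from 0.063 to 0.13). KITLG, the ligand of the KIT receptor, rose by 1.15 ± 0.07 from a dim control value (limma adjusted p = 0.00023). TRIAP1, a survival gene that p53 induces, rose by 0.49 ± 0.09 (limma adjusted p = 0.0087).

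Among 12 measured regulators of p53, 1 rose, 2 fell and 9 did not pass. CDKN2A, which encodes p16INK4a and p14ARF, stood at 6.61, 6.68 and 6.75 in RKIP shRNA arrays, against 7.67, 7.57 and 7.32 in control arrays. It fell by 0.84 (log2, SE 0.10; limma adjusted p = 0.0022). MDM4, an inhibitor of p53, stood at 8.88, 8.88 and 8.93 in RKIP shRNA arrays, against 9.52, 9.57 and 9.52 in control arrays, and fell by 0.63 (SE 0.06, limma adjusted p = 0.00099). Both genes were lower in every RKIP shRNA array. DAXX, a chaperone gene of p53 regulation and chromatin, rose by 0.31 (limma adjusted p = 0.021). Its adjusted p lay above 0.05, up to 0.072, when any 1 control array or RKIP shRNA replicate 3 was left out. The other 4 DAXX probes had changes from 0.31 to 0.32, and probes for copies of 1 locus are no independent check.

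Downstream of the membrane and at the death receptors few listed genes had a value. Of 3 apoptosome, caspase and nuclease genes, ENDOG, a mitochondrial nuclease gene, rose by 0.42 ± 0.09 (SE, limma adjusted p = 0.016), and its adjusted p was up to 0.060 without control replicate 1, control replicate 3 or RKIP shRNA replicate 3. Of 5 inhibitors of apoptosis, BIRC5, which encodes survivin and is also a gene of cell division, rose by 0.57 ± 0.07 (limma adjusted p = 0.0025), and XIAP at 0.08 did not pass. Of 4 death receptor genes 2 rose. FADD, the adaptor that recruits caspase 8, rose by 0.40 ± 0.08 (limma adjusted p = 0.013), with an adjusted p of 0.053 without control replicate 2. A second, dimmer FADD probe had a change of 0.03, and the mean of both probes did not pass (limma adjusted p = 0.16). TNF, the ligand of TNF receptors, rose by 1.29 ± 0.11 (limma adjusted p = 0.00062). CFLAR, which encodes the caspase 8 inhibitor FLIP, was at -0.01 (named, like XIAP, after its value was seen).

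**Figure D3:**
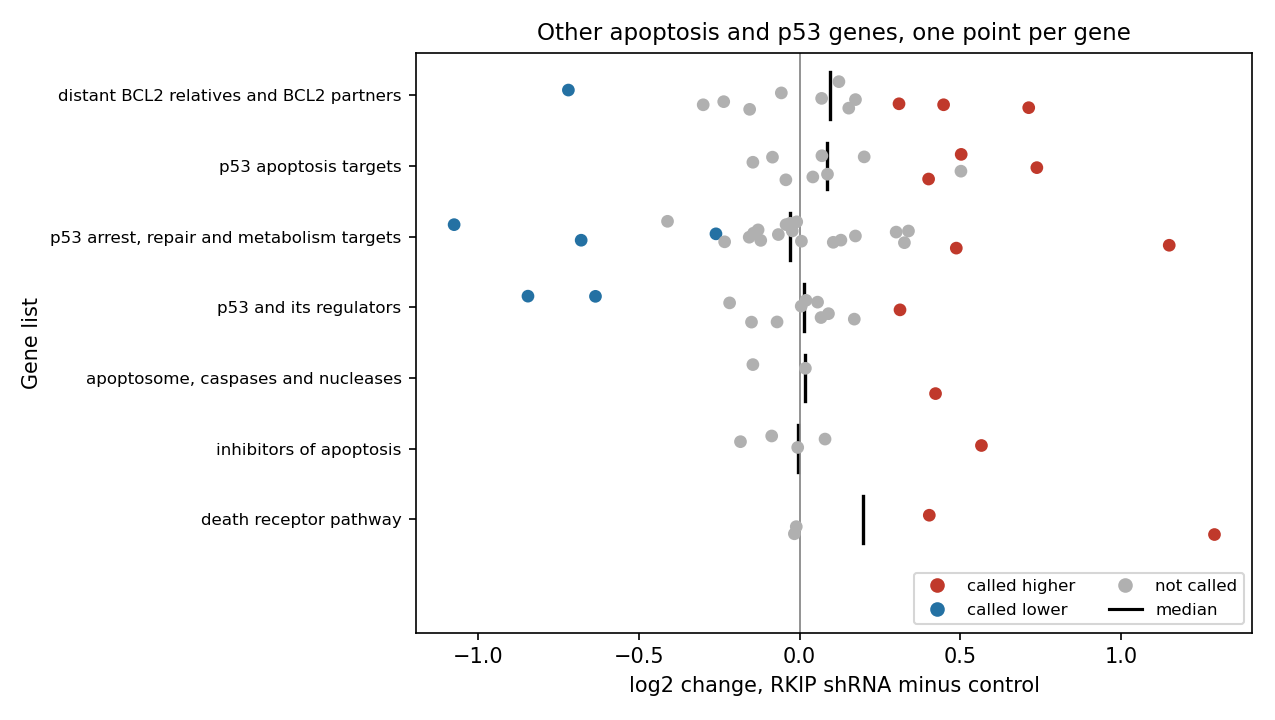
Log2 change of RKIP shRNA minus control (horizontal axis) for the measured genes of 7 further lists (rows), without the 5 members. Each point is a gene, coloured by whether limma called it higher, lower or neither, and the vertical bar is the list median; medians lay between -0.03 and 0.20 while single genes ranged from -1.07 to 1.29.

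Markers of the line itself moved as well. Over the 7 measured monocytic markers, the mean log2 level ranged from 7.74 to 7.89 in RKIP shRNA arrays, against 7.29 to 7.31 in control arrays, with 4 markers called higher and 1 lower. LYZ, the lysozyme gene, contributed most, at 10.09 in RKIP shRNA and 7.55 in control cells. Of 12 measured markers of T, B, epithelial, fibroblast and erythroid cells, 2 were called higher and 2 lower. The mean levels were 4.78 to 4.98 against 4.57 to 4.89 for 3 T cell markers, 5.14 to 5.27 against 5.42 to 5.50 for 2 B cell markers, and 4.86 to 4.94 against 4.82 to 5.02 for 5 epithelial markers (RKIP shRNA against control). FN1, the only fibroblast marker measured, ranged from 4.70 to 4.91 against 3.89 to 4.06, and KLF1, the only erythroid marker measured, from 5.09 to 5.38 against 4.77 to 5.21. Being above the median of all values in both groups was not particular to the monocytic markers. It held for 3 of 3 T cell, 1 of 2 B cell and 3 of 5 epithelial markers and for KLF1, but not for FN1. EPCAM was dim in both groups, while KRT18 stood at 7.96 in RKIP shRNA and 8.26 in control cells. The part of these shifts in the members' values was not tested. The arrays measure bulk RNA, so a changed level per cell and a changed share of cells cannot be told apart.

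For each member the 3 protein-coding genes with the most similar profile were found by the root mean square difference over the 6 arrays, after each gene was set relative to its control mean. JMJD8, CD320 and MRPL49 were closest to BAX (differences of 0.051, 0.058 and 0.064 on the log2 scale). THAP7, TMEM248 and VAMP8 were closest to PMAIP1 (0.014, 0.030 and 0.031). AGFG2 and LONRF2 were closest to AEN, followed by PIDD1, itself a listed p53 target (0.025, 0.042 and 0.046). ICAM3, PKD1 and PCBP4 were closest to BBC3 (0.054, 0.069 and 0.071), and LRIG2, RBM34 and CD53 to BCL2 (0.014, 0.019 and 0.021). With 6 arrays in 2 groups this measure mostly finds genes of equal change.

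The members' changes kept their direction in each of 11 alternatives per gene, counting each array left out. Most of these alternatives could not have reversed a direction. The members' groups did not overlap, so leaving out or reweighting arrays keeps the sign. The replicate block and the mean of a gene's probes leave the members' values as they are. Only quantile normalisation and median centring could have changed a direction. BAX ranged from 0.71 to 0.83, PMAIP1 from 0.41 to 0.47, AEN from 0.35 to 0.48, BBC3 from -0.52 to -0.36 and BCL2 from -0.43 to -0.34 on the log2 scale. Passing the adjusted threshold was less stable for 2 of them. With 1 array left out, BBC3 did not pass in 4 of 6 fits and AEN did not pass in 3 of 6. BAX, PMAIP1 and BCL2 passed in all 6. Nothing is read from these passes, because the members were chosen by this contrast in the same arrays.

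**Figure D4:**
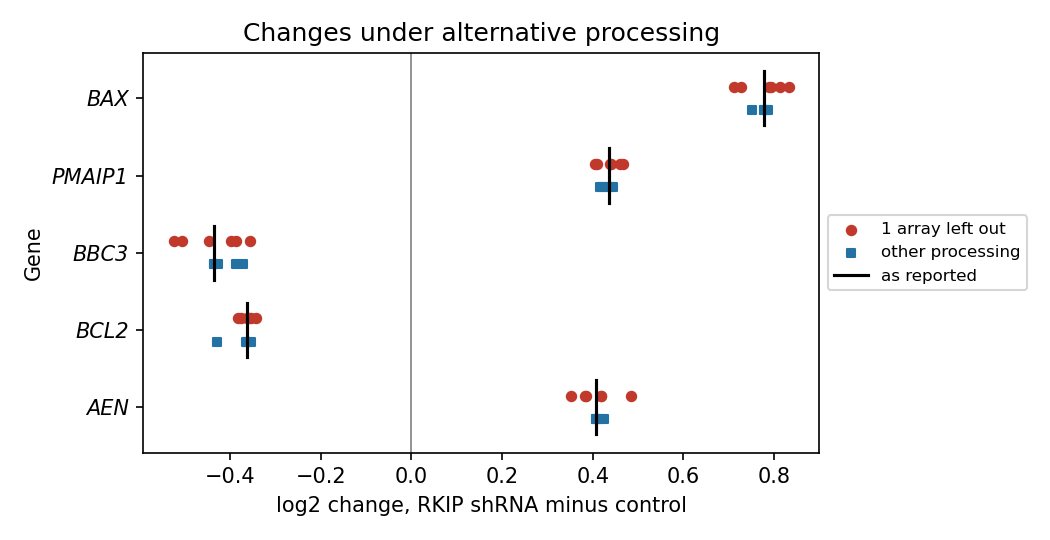
Log2 change of RKIP shRNA minus control (horizontal axis) for each member (rows) as reported (black bar), with 1 array left out (red circles) and under other processing (blue squares). BBC3 spread most, from -0.52 to -0.36, and the BCL2 value at -0.43 is that under quantile normalisation.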

How the data were processed

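The authors hybridised total RNA, 250 ng per array and labelled with biotin per the labels, to Affymetrix Human Gene 2.0 ST arrays. The deposited table held 53617 rows of log2 values (range 0.72 to 14.0, from which the scale was read). How the authors summarised, background-corrected and normalised them is not given in the sources used here. The platform annotation gave 1 symbol to 16098 rows and left 37519 unnamed here. All 14884 genes matched RefSeq GRCh38.p14 by gene number. The build behind the annotation is unnamed, so coordinates are given only for promoter windows, from RefSeq.

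RKIP shRNA minus control was fitted on 1 probe per gene (the brightest on average) with limma 3.58.1 (lmFit, eBayes) under R 4.3.3, on all 6 arrays without covariates, and adjusted by Benjamini-Hochberg over all named genes. The number of arrays limits precision, no batch is labelled, and replicate numbers did not pair the arrays. No pair of arrays was a duplicate. The members and the 10 lists (138 genes, 85 measured, the others not analysed here) were chosen with earlier results of these data known, and the motifs after the changes were seen. Genes named are the members, PEBP1, every measured core BCL2 family gene, up to 6 called genes with the smallest p in each other list, and the 3 most similar profiles per member, with exceptions stated. The fit was tested on simulated data. Alternatives covered normalisation, centring, prior, array weights, a replicate block, dim genes, probes, features tested, threshold, an ordinary t statistic and leaving out each array. Figures were drawn with matplotlib 3.10.9.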

Additional observations from a re-analysis of the deposited data

How the results depend on the processing

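Among the members, PEBP1 and the named genes of the lists, no called gene changed direction under any alternative. The groups of these called genes did not overlap, so leaving out 1 array could not have reversed them. The direction of other called genes was not followed. The fall of PEBP1 passed in every alternative. Among named genes that were not called, BCL2L1 at -0.02 reached 0.04 without control replicate 1, BOK at 0.03 reached -0.05 without control replicate 2, and BIK at 0.02 reached -0.17 without RKIP shRNA replicate 2. Of the members, BCL2 was the only one whose value left the spread between replicates, with a log2 change of -0.43 under quantile normalisation (the cause was not tested). Without 1 array the changes ranged from 0.71 to 0.83 for BAX, 0.41 to 0.47 for PMAIP1, -0.52 to -0.36 for BBC3, -0.38 to -0.34 for BCL2, 0.35 to 0.48 for AEN and -1.54 to -1.41 for PEBP1. Testing all 53617 rows of the table, most of them unnamed, gave 1832 higher and 2439 lower calls among those rows. These are not counts of named genes. Over all named genes, higher calls numbered 697 and lower calls 775 at a threshold of 0.01. With fewer arrays, 1 left out, higher calls lay between 963 and 1212 and lower calls between 1018 and 1270; they fell to 969 without control replicate 2, 983 without control replicate 3 and 963 without RKIP shRNA replicate 1. Of the 80 listed genes, 8 were higher at the threshold of 0.01, 10 were lower with the trended and robust prior (the cause was not tested), and without 1 array 12 to 15 were higher and 5 lower. With the replicate block, which is no pairing here (correlations of deviations between same-numbered arrays from -0.02 to 0.02), 14 listed genes were higher and 5 lower, and the members' changes were identical because the design is balanced. Of the named genes, BAK1, BCL2L12, DAXX and GM2A did not pass with the block. Testing all rows ended the calls of the members BBC3 and AEN and of BAK1, BAD, BCL2L12, GM2A, DAXX and ENDOG. The ordinary t statistic ended those of BBC3, MCL1, BAK1 and BAD, and array weights that of BBC3. Quantile normalisation or median centring ended that of GM2A. Dim genes such as BCL2A1 and BCL2L10 lie near background, which limits what can be seen of them.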
